A study of Mus musculus with 20 samples.

Results

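The interferon response genes described here are 47 named mouse genes, chosen by symbol as classical interferon-stimulated genes and guanylate-binding protein (GBP) genes. The choice was made with earlier results of these data known. The genes were matched to Ensembl identifiers in a table of 56239 genes. All 47 were found. They were measured by chromatin-associated RNA-seq, which enriches for RNA still being made, in B3, a line of mouse pre-B cells that carries an IKZF1-ERt2 construct introduced by retrovirus. IKZF1 (Ikaros) is a zinc finger transcription factor of lymphocytes, and its ERt2 fusion moves into the nucleus when 4-hydroxytamoxifen (4-OHT) is added. Every library came from these transduced cells. Libraries were taken at 0 h, without induction, and at 30 min, 1 h, 2 h, 6 h, 12 h, 15 h, 18 h, 21 h and 24 h of 500 nM 4-OHT, which gave 10 time points, 2 replicates each and 20 libraries in all. No library with 4-OHT but without the construct, and none kept in culture without 4-OHT, was used here, so IKZF1, the drug and time in culture cannot be told apart.

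Interferons are cytokines that cells release when they sense viral nucleic acid. They bind receptors coupled to JAK kinases, which activate STAT proteins, and with the interferon regulatory factors (IRFs) these switch on a large set of genes that block virus replication, sense foreign RNA and DNA, and help present antigen. Type I interferon acts mostly through ISGF3, a complex that contains STAT2 and IRF9 and binds the interferon-stimulated response element (ISRE), whereas interferon gamma acts through STAT dimers at the gamma-activated site. IRF1 and IRF2 bind ISRE-like sequences too, IRF1 mostly as an activator and IRF2 often as a repressor. Many of these genes also have a basal level in lymphocytes that never met interferon.

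The promoters of the members show how widely they share this element. RefSeq promoters (assembly GRCm38.p6, from 250 bases before to 50 after each start) were given for 35 of the 47 members, 42 promoters in all. The ISRE core GAAANNGAA, searched on both strands, was present in 23 of the 42 promoters, 54.8%, against 8.56% of all 32851 promoters, and in at least 1 promoter of 22 of the 35 members. The gamma-activated site TTCNNNGAA was present in 15 of the 42, 35.7%, against 8.3% of all promoters. The Ikaros core GGGAA, a common 5-base run, was present in 30 of the 42, 71.4%, against 62.7%. Matches of these motifs can share bases. Stretches of 60 bases upstream of the start are given below for 9 members, picked among those with an ISRE core upstream of the start to show different courses of their RNA, printed along the gene's strand with the ISRE core in capitals (overlapping matches run together, and a match on the other strand appears as its reverse complement). The first 3 belong to genes that were higher at 24 h, the next 2 to genes that were high only up to 6 h, the next 2 to genes that fell, and the last 2 to a gene that was not called changed and to one close to the count floor.
Gbp2, chr3:142620580-142620639, + strand: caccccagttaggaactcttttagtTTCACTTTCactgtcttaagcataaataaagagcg
Oas3, chr5:120777694-120777753, - strand: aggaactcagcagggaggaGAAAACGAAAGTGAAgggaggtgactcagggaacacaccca
Irgm2, chr11:58214888-58214947, + strand: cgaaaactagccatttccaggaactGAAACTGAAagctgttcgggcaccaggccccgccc
Ifit1, chr19:34640780-34640839, + strand: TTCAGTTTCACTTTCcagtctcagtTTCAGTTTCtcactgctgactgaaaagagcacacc
Rsad2, chr12:26456537-26456596, - strand: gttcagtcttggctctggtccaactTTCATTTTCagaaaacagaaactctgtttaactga
Bst2, chr8:71537562-71537621, - strand: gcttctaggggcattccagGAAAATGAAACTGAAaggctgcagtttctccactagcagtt
Ifih1, chr2:62646333-62646392, - strand: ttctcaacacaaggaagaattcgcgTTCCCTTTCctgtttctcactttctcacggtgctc
Stat2, chr10:128270252-128270311, + strand: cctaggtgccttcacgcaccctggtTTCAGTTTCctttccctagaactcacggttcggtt
Isg15, chr4:156200850-156200909, - strand: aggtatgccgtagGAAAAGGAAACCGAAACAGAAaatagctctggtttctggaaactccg
Over all members with a promoter, the core was found in 9 of the 13 members with a promoter that were higher at 24 h than at 0 h, in 2 of the 3 that were lower, in 4 of the 10 tested but not changed, and in 4 of the 4 that were too low to test. The match is a description of the letters in this window and not evidence of binding.

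Library totals ran from 33296158 to 46868954 counts. Pre-B markers were detected (among them Cd79a, Cd79b, Pax5, Ebf1, Igll1, Vpreb1 and Il7r), whereas Rag1 and Rag2 were listed at 0 in every library. Some of them moved over the same hours as the members, with log2 fold changes at 24 h of -7.42 for Igll1, -5.56 for Vpreb1 and 2.29 for Cd79b, and the part of a change in cell state in the results below was not tested. Of the 12 other markers listed for T cells, macrophages, plasmacytoid dendritic cells and plasma cells (Bst2, a member, aside), 7 had at most 10 reads in any library (Cd3e, Cd3g, Cd4, Lyz2, Mpo, Sdc1 and Prdm1). The other 5 were tested. Siglech, with 1 to 21 reads, was called higher at 18 h and 24 h (log2 fold change 1.52 ± 0.43 SE, adjusted p = 0.0028 at 24 h), Csf1r, with 6 to 56 reads, was called lower from 15 h on (-1.52 ± 0.38 SE, adjusted p = 0.0011 at 24 h), and Adgre1, Cd8a and Xbp1 were not called. Their part in the results was not tested. In a bulk culture, fewer cells making an RNA and less RNA in each cell cannot be told apart. Rag1 and Rag2 are covered by other annotated genes over their whole length. The counts held reads for few such genes, on either strand. Of 710 protein-coding genes covered to 99% or more by genes of the other strand alone, 98.7% were at 0 in all 20 libraries, against 86.3% of 619 covered by genes of the same strand and 18.9% of 11899 with no overlapping gene. The library kit was directional, but in these counts a read in a region shared by 2 genes was thus mostly not counted, whichever strand they were on, and it is the part of a gene free of other genes that was measured. Replicates were closest at 2 h, with a chi-square over genes of 1.26 per degree of freedom, and farthest apart at 12 h (9.95), 18 h (14.9) and 21 h (4.78). The labels do not say that replicates were separate cultures, least clearly at 0 h (1.46), so p-values measure the spread between libraries, which may be technical.

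Most members that changed were called higher at some time. Of the 20 with such a call, 10 had their first by 6 h and 10 at 12 h or later, and Rsad2, Ifit1 and Oasl1 had none after 6 h. Of the 47 members, 39 had enough reads to test, and 26 of these changed over the time course, where a call is an adjusted p under 0.01 with a fold change above 2. The background was 51.9% of all 16601 genes tested. Gbp8, Oas3 and Rsad2 reached 10 counts only at induced times where they were high, so they entered the test only through their rise. Of the 26, 18 were called higher at 1 or more times and never lower, 6 were called lower and never higher, and 2 (Gbp7 and Trim30a) were called lower early and higher late. How all genes tested split by direction or by time of first call was not counted. At 30 min no member was called in either direction (background 0.410% down and 0.0542% up), with edgeR's quasi-likelihood test or with DESeq2. At an unadjusted p under 0.05 in edgeR's test, 6 were higher and 4 lower. The share of all genes at that looser threshold was not counted, so these numbers have no background.

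At 2 h, 5 members were called lower and 4 higher (background 6.91% and 6.25%). The members that were lower were Ifih1, Gbp7, Oasl2, Bst2 and Eif2ak2, and those that were higher were Irf1, Ifit1, Oas2 and Rsad2. The count of 4 higher fell to 2 with DESeq2 and without 2 h replicate 1, and to 1 with a filter of at least 10 counts in every library. By 6 h, 10 were higher and 4 lower (background 10.9% up and 9.13% down), and at 12 h the counts were the same, 10 and 4 (background 13.2% and 9.92%). At 24 h, 17 members, 43.6% of those tested, were higher and 4, 10.3%, were lower, against a background of 20% up and 20.1% down. Gbp8 and Oas3, among these 17, and Rsad2, among the 4 higher at 2 h, had entered the test only through their rise. The filter thus partly set these counts. The median log2 fold change of the 39 members was -0.04 at 2 h, 0.23 at 6 h and 0.66 at 24 h, where that of all genes was 0.03, 0.02 and -0.01. With scaling by library totals alone the median of all genes at 24 h shifted to -0.27 and that of the members to 0.40, so 14 rather than 17 members were called higher and 6 rather than 4 lower.

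**Figure D1:**
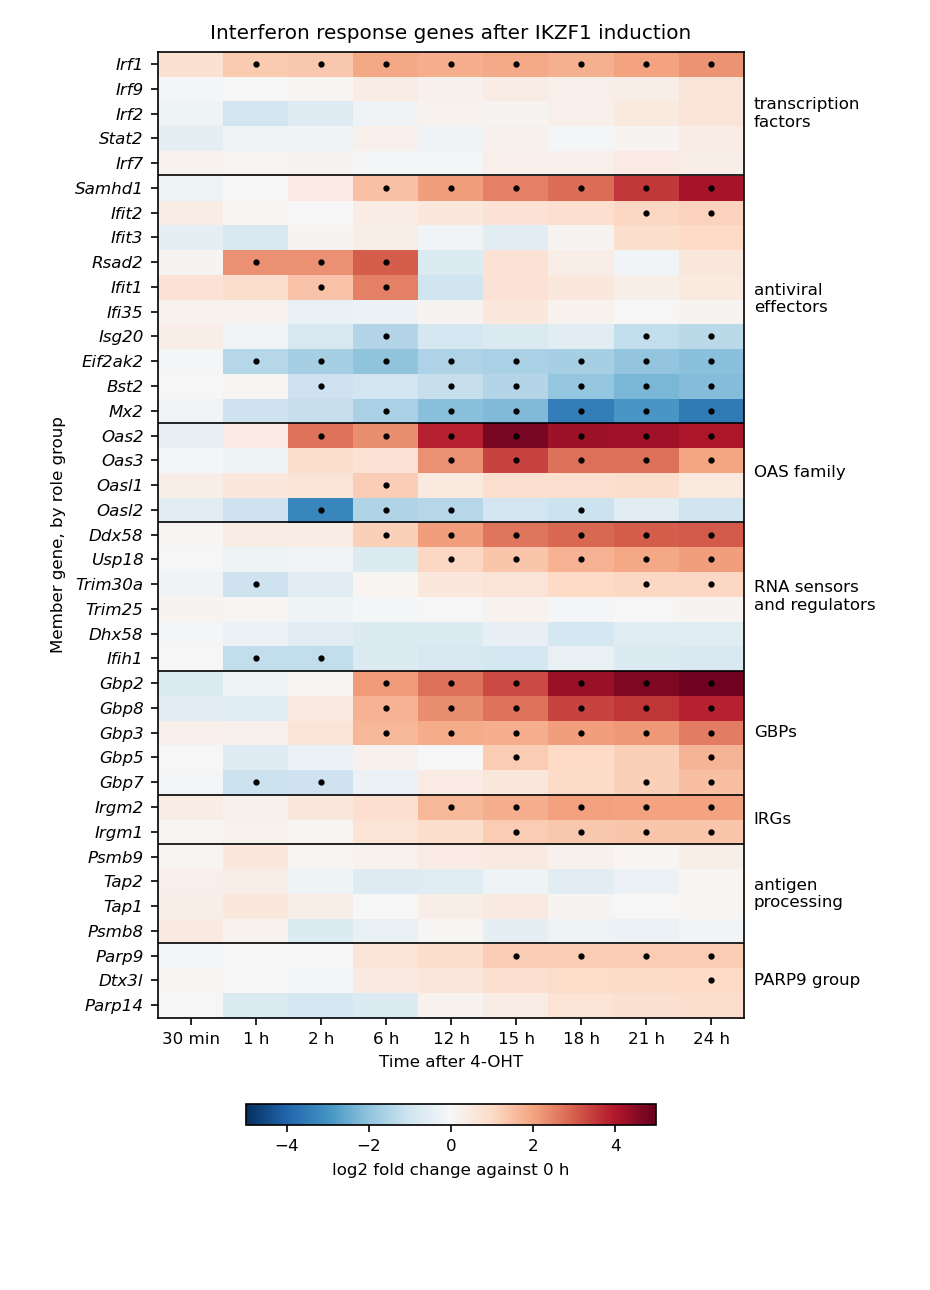
Log2 fold change of the 39 tested members (rows, grouped by role) at 9 times after 4-OHT (columns) against 0 h, from the fit over all 20 libraries. Red is higher, blue is lower, and a black dot marks a call (adjusted p under 0.01 and a fold change above 2). No dots stand at 30 min, 10 members have dots on red at 6 h and 17 at 24 h.

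The guanylate-binding proteins are interferon-induced GTPases that coat and lyse pathogen compartments. All 5 members of this group with enough reads changed, and all 5 were higher at 24 h, with a median log2 fold change of 2.57. Of all genes tested, 51.9% changed and 20% were higher at 24 h. Gbp8 had entered the test only through its rise. Gbp5, Gbp7, Gbp3 and Gbp2 lie in this order within chr3:142493978-142638008 (GRCm38, GENCODE M21), and Gbp8 lies on chromosome 5.

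Gbp2 (chr3:142620602-142638008) had 0.302 and 0.248 CPM (0 h), 0.217 and 0.134 (30 min), 0.228 and 0.246 (1 h) and 0.235 and 0.347 (2 h), where CPM is the read count scaled to library size with TMM factors. Afterwards it had 1.31 and 1.14 CPM (6 h), 1.9 and 1.82 (12 h), 2.99 and 2.55 (15 h), 4.99 and 6.12 (18 h), 7.09 and 7.14 (21 h) and 9.04 and 7.3 (24 h). The libraries of the first 4 time points lay between 0.134 and 0.347 CPM, and every library from 6 h on lay above them. Against 0 h this was a log2 fold change of 0.09 ± 0.41 (SE, adjusted p = 0.86) at 2 h, 2.14 ± 0.29 (SE, adjusted p = 1.1e-06) at 6 h and 4.87 ± 0.20 (SE, adjusted p = 1.1e-15) at 24 h. Gbp3, of the same cluster, held 0.432 and 0.585 CPM (0 h), 0.487 and 0.691 (30 min), 0.766 and 0.369 (1 h) and 0.887 and 0.717 (2 h). From 6 h on the values were 1.56 and 1.66 CPM (6 h), 1.96 and 1.74 (12 h), 1.65 and 1.94 (15 h), 1.96 and 2.45 (18 h), 2.37 and 2.17 (21 h) and 2.86 and 3.18 (24 h). Here too every library from 6 h on lay above all earlier ones, with a log2 fold change of 1.66 ± 0.25 (SE, adjusted p = 5.0e-06) at 6 h and 2.57 ± 0.23 (SE, adjusted p = 9.6e-10) at 24 h.

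Gbp8 was counted in few reads and over only 50.6% of its gene body, the rest being shared with Gbp4 and Gbp9. Its counts were 2 and 6 reads (0 h), 2 and 3 (30 min), 2 and 3 (1 h) and 5 and 5 (2 h). They then came to 13 and 14 reads (6 h), 18 and 16 (12 h), 23 and 25 (15 h), 42 and 37 (18 h), 28 and 44 (21 h) and 45 and 47 (24 h). The groups from 6 h on did not overlap that at 0 h, and the log2 fold change at 24 h was 3.84 ± 0.33 (SE, adjusted p = 5.0e-10).

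Gbp7 followed another course. Its level was 4.86 and 4.12 CPM (0 h), 4.55 and 3.94 (30 min), 2.05 and 2.21 (1 h) and 1.91 and 2.48 (2 h). Between 30 min and 1 h it thus fell below all 4 earlier libraries. It then climbed, with 3.88 and 3.49 CPM (6 h), 5.35 and 6.41 (12 h), 7.16 and 6.19 (15 h), 8.87 and 8.58 (18 h), 9.53 and 10.8 (21 h) and 12.2 and 13.3 (24 h). Against 0 h its log2 fold change was -1.08 ± 0.15 (SE, adjusted p = 2.5e-06) at 1 h, -1.03 ± 0.15 (SE, adjusted p = 4.0e-06) at 2 h and 1.50 ± 0.11 (SE, adjusted p = 4.9e-11) at 24 h. The call at 2 h was lost without 0 h replicate 1 (-0.90) or 2 h replicate 1 (-0.86), where a value beside a lost call is the log2 fold change without that library or in that fit. Gbp5, in the same cluster, was counted in 3 to 30 reads a library, was not called before 15 h, and had a log2 fold change of 1.69 ± 0.39 (SE, adjusted p = 5.0e-04) at 24 h, a call lost without 24 h replicate 1 (1.21).

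The immunity-related GTPases (IRGs) act beside the GBPs at vacuoles that hold pathogens. Irgm1 and Irgm2 are regulators of the other IRGs. Irgm1 had 9.05 and 9.01 CPM (0 h), 9.02 and 9.74 (30 min), 10.8 and 9.43 (1 h) and 9.76 and 9.72 (2 h), and later 14.8 and 14.1 CPM (6 h), 16.8 and 16.4 (12 h), 22.3 and 20.7 (15 h), 22.7 and 23.1 (18 h), 23.9 and 23.8 (21 h) and 23.8 and 22.9 (24 h). Irgm2 had 1.92 and 1.69 CPM (0 h), 2.46 and 2.21 (30 min), 1.99 and 2.26 (1 h) and 2.45 and 2.85 (2 h), and later 3.69 and 2.78 CPM (6 h), 5.69 and 5.73 (12 h), 6.54 and 6.31 (15 h), 7.04 and 7.98 (18 h), 7.43 and 7.25 (21 h) and 7.52 and 7.08 (24 h), over the 65.6% of its body that it does not share with Igtp. Both rose, Irgm2 being called from 12 h and Irgm1 from 15 h, and the libraries at these times lay above both at 0 h. At 24 h the log2 fold change was 1.37 ± 0.07 (SE, adjusted p = 6.4e-14) for Irgm1 and 2.01 ± 0.13 (SE, adjusted p = 4.1e-12) for Irgm2. The third member, Igtp (Irgm3), could not be measured.

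**Figure D2:**
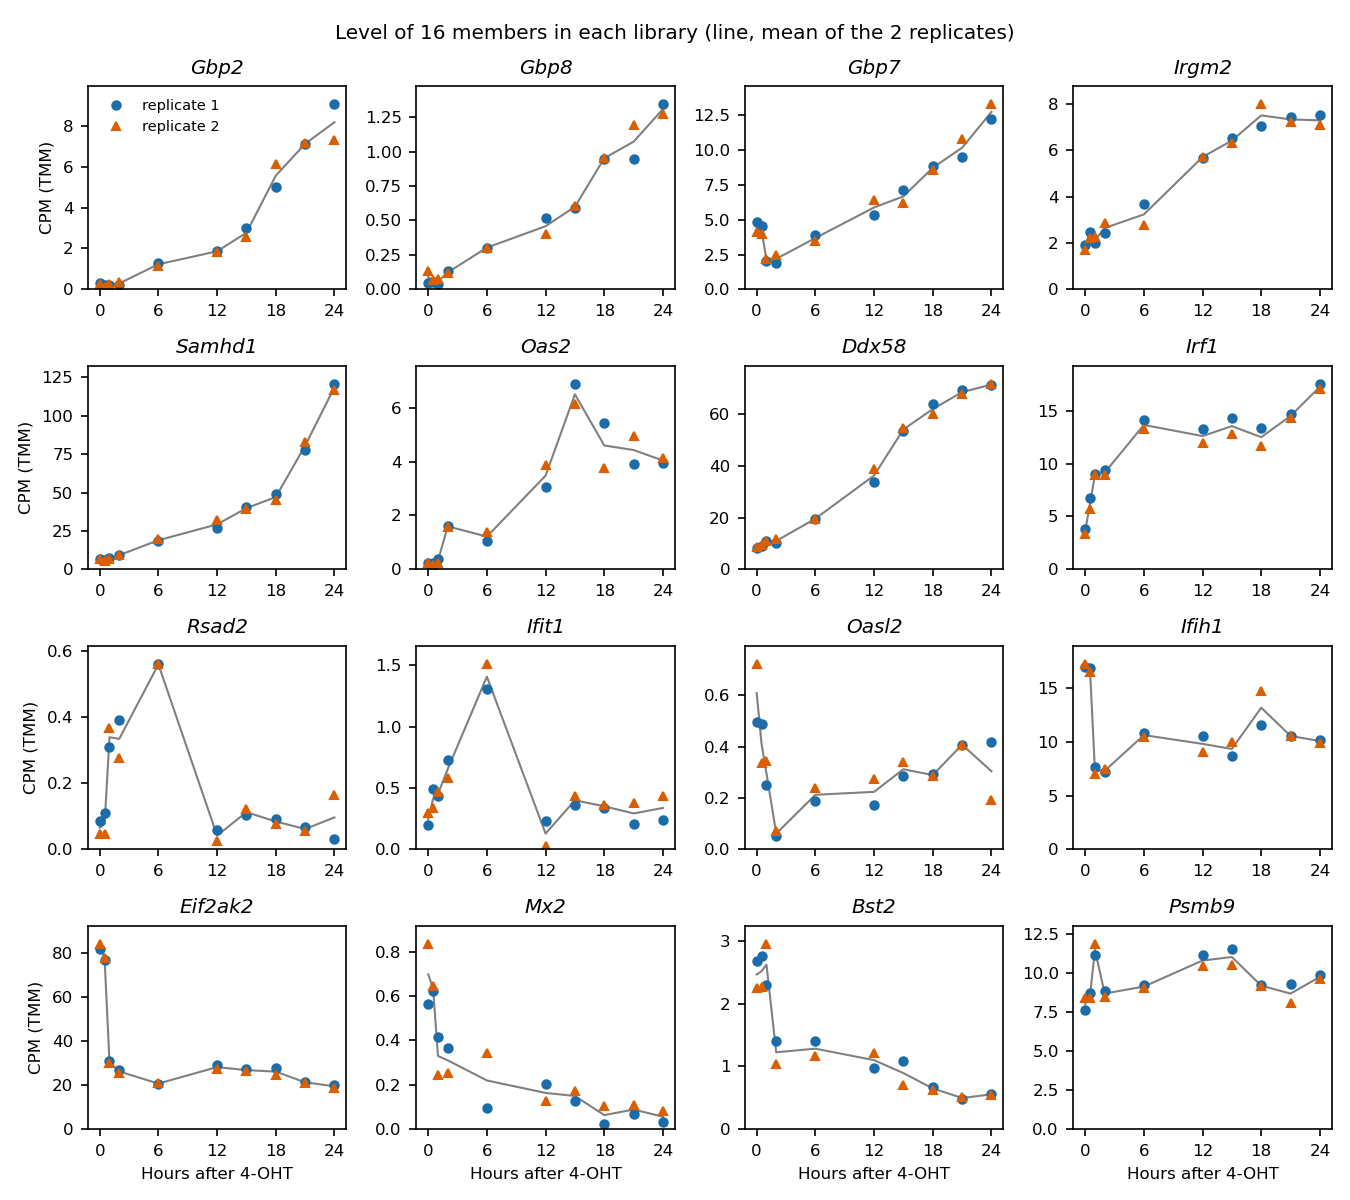
Level of 16 members in each of the 20 libraries, in TMM-scaled CPM (y axis, from 0, with a scale of its own in each panel), against hours after 4-OHT. Circles and triangles are replicates 1 and 2 and the grey line is their mean. Gbp2, Samhd1 and Ddx58 climb through the last hours, Rsad2 and Ifit1 peak at 6 h, Ifih1 and Eif2ak2 fall between 30 min and 1 h, and Psmb9 stays between 7.65 and 11.8.

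The OAS enzymes make a short oligoadenylate signal when they bind double-stranded RNA, which activates RNase L. Of the related OASL proteins, Oasl1 lacks this activity and restrains translation of Irf7. All 4 OAS members tested changed, in 3 different courses, where 51.9% of all genes tested changed. Oas3 had entered the test only through its rise, so its part in this count was partly set by the filter. Oas2 had 0.238 and 0.248 CPM (0 h), 0.217 and 0.156 (30 min), 0.393 and 0.246 (1 h) and 1.62 and 1.57 (2 h). It then had 1.05 and 1.38 CPM (6 h), 3.08 and 3.89 (12 h), 6.88 and 6.14 (15 h), 5.44 and 3.77 (18 h), 3.9 and 4.97 (21 h) and 3.97 and 4.13 (24 h). It was low through 1 h, stepped up between 1 h and 2 h and peaked at 15 h, where the log2 fold change was 4.73 ± 0.25 (SE, adjusted p = 2.2e-13), compared with 2.70 ± 0.34 (SE, adjusted p = 5.9e-07) at 2 h and 4.04 ± 0.28 (SE, adjusted p = 1.5e-11) at 24 h.

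Oas3 was counted at a low level, with 1 and 5 reads (0 h), 3 and 2 (30 min), 3 and 2 (1 h) and 6 and 4 (2 h), and then 5 and 5 reads (6 h), 12 and 13 (12 h), 31 and 26 (15 h), 18 and 21 (18 h), 15 and 16 (21 h) and 9 and 10 (24 h). It too was highest at 15 h, with a log2 fold change of 3.37 ± 0.42 (SE, adjusted p = 3.2e-07), and had one of 1.98 ± 0.54 (SE, adjusted p = 0.0024) at 24 h. That last call was lost with DESeq2 (2.04), without 0 h replicate 1 (1.23), and without either library at 24 h (1.99 and 1.97).

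Oasl2 went the other way. It had 23 and 32 reads (0 h), 18 and 15 (30 min), 12 and 14 (1 h) and 2 and 3 (2 h), and later 8 and 11 reads (6 h), 6 and 11 (12 h), 11 and 14 (15 h), 13 and 11 (18 h), 12 and 15 (21 h) and 14 and 7 (24 h). The 2 and 3 reads at 2 h stood below every other library. Its log2 fold change was -3.24 ± 0.48 (SE, adjusted p = 5.0e-06) at 2 h and -1.01 ± 0.34 (SE, adjusted p = 0.011) at 24 h, which was not called. Between 2 h and 24 h it rose, with a log2 fold change of 2.23 ± 0.59 (SE, adjusted p = 0.0018). Oasl1, within 49 to 128 reads a library, was called only at 6 h, at a log2 fold change of 1.24 ± 0.19 (SE, adjusted p = 7.7e-06).

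The antiviral effectors were the only role group with calls in both directions at 24 h. Of 13 members, 10 were tested and 8 changed, and at 24 h 2 were called higher (Samhd1 and Ifit2) and 4 lower (Mx2, Bst2, Isg20 and Eif2ak2). Of all genes tested, 51.9% changed, and at 24 h 20% were higher and 20.1% lower. Rsad2, among the 8, had entered the test only through its rise. Samhd1, which cleaves deoxynucleotides and so starves reverse transcription, had 6.87 and 6.85 CPM (0 h), 5.8 and 5.57 (30 min), 7.01 and 6.56 (1 h) and 9.34 and 9.05 (2 h). It then had 18.1 and 19.7 CPM (6 h), 26.7 and 31.8 (12 h), 40.5 and 39.1 (15 h), 49.2 and 44.9 (18 h), 77.9 and 83.1 (21 h) and 120.5 and 117 (24 h). Each group from 6 h on lay above the one before, without overlap. In log2 fold change this was 1.46 ± 0.09 (SE, adjusted p = 2.1e-12) at 6 h and 4.11 ± 0.08 (SE, adjusted p = 2.1e-21) at 24 h. Per kilobase of gene body its level went from 0.182 ± 0.000464 to 3.14 ± 0.0688 CPM (SD, n = 2).

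Eif2ak2 encodes PKR, the kinase that halts translation when it binds double-stranded RNA. Its level was 81.8 and 83.8 CPM (0 h), 76.5 and 77.5 (30 min), 30.8 and 30.05 (1 h) and 26.8 and 25.4 (2 h). From 6 h it was 20.4 and 20.9 CPM (6 h), 29.1 and 27.1 (12 h), 27.1 and 26.3 (15 h), 27.8 and 24.3 (18 h), 21.5 and 20.8 (21 h) and 20.2 and 18.7 (24 h). The drop fell between 30 min and 1 h, and every later library lay below the first 4. The log2 fold change was -0.10 ± 0.05 (SE, adjusted p = 0.22) at 30 min, -1.44 ± 0.06 (SE, adjusted p = 6.2e-15) at 1 h and -2.09 ± 0.06 (SE, adjusted p = 2.4e-18) at 24 h. Per kilobase, its level of 2.76 ± 0.0465 CPM at 0 h was at about that of Tap1, 2.72 ± 0.144, and at 24 h the values were 0.647 ± 0.0358 and 2.89 ± 0.0139 (SD, n = 2).

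Bst2 (tetherin), which holds budding virus at the cell surface, had 2.68 and 2.25 CPM (0 h), 2.76 and 2.27 (30 min), 2.3 and 2.95 (1 h) and 1.41 and 1.04 (2 h). Its later values were 1.4 and 1.16 CPM (6 h), 0.978 and 1.22 (12 h), 1.08 and 0.704 (15 h), 0.677 and 0.62 (18 h), 0.475 and 0.516 (21 h) and 0.567 and 0.543 (24 h). Every library from 2 h on lay below the 6 of the first hour, with log2 fold changes of -1.02 ± 0.19 (SE, adjusted p = 1.0e-04) at 2 h and -2.15 ± 0.24 (SE, adjusted p = 4.1e-08) at 24 h. The call at 2 h was lost without 0 h replicate 1 (-0.89) or 2 h replicate 2 (-0.81). Mx2, a dynamin-like GTPase against viruses, had 26 and 37 reads (0 h), 23 and 29 (30 min), 20 and 10 (1 h) and 14 and 11 (2 h), and then 4 and 16 reads (6 h), 7 and 5 (12 h), 5 and 7 (15 h), 1 and 4 (18 h), 2 and 4 (21 h) and 1 and 3 (24 h). It was called lower at every time from 6 h on, with a log2 fold change of -3.54 ± 0.59 (SE, adjusted p = 1.3e-05) at 24 h. Isg20, a 3' exonuclease for RNA, was counted in 8 to 48 reads and had a log2 fold change of -1.36 ± 0.32 (SE, adjusted p = 5.8e-04) at 24 h, which was lost without 24 h replicate 2 (-1.07).

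Rsad2 and Ifit1 were high for a few hours only. Rsad2 encodes viperin, which makes a chain-terminating nucleotide, and Ifit1 binds foreign capped RNA. Rsad2 had 4 and 2 reads (0 h), 4 and 2 (30 min), 15 and 15 (1 h) and 15 and 12 (2 h), and then 24 and 26 reads (6 h), 2 and 1 (12 h), 4 and 5 (15 h), 4 and 3 (18 h), 2 and 2 (21 h) and 1 and 6 (24 h). The 6 libraries from 1 h to 6 h held between 12 and 26 reads and no other library held more than 6. Its log2 fold change was 2.30 ± 0.51 (SE, adjusted p = 7.9e-04) at 1 h, 2.27 ± 0.52 (SE, adjusted p = 7.7e-04) at 2 h and 3.02 ± 0.45 (SE, adjusted p = 5.1e-06) at 6 h, while at 24 h it was 0.57 ± 0.71 (SE, adjusted p = 0.5). The libraries after 6 h held 1 to 6 reads, against 2 to 4 at 0 h and 30 min. Ifit1 had 9 and 13 reads (0 h), 18 and 15 (30 min), 21 and 19 (1 h) and 28 and 25 (2 h), and then 56 and 70 reads (6 h), 8 and 1 (12 h), 14 and 18 (15 h), 15 and 14 (18 h), 6 and 14 (21 h) and 8 and 16 (24 h). It was highest at 6 h, at a log2 fold change of 2.53 ± 0.32 (SE, adjusted p = 6.0e-07), and the 1 read in replicate 2 at 12 h was the lowest. The calls at 2 h rested on few reads. That of Rsad2 was lost with DESeq2 (2.34) and without 0 h replicate 2 (1.90) or 2 h replicate 1 (2.02), and that of Ifit1 (1.41 ± 0.39 SE, adjusted p = 0.0039) with DESeq2 (1.43) and without 0 h replicate 1 (1.14) or 2 h replicate 1 (1.24). Ifit2, a neighbour of Ifit1 on chromosome 19, was called only at 21 h and 24 h (1.14 ± 0.07 SE, adjusted p = 6.0e-12), and Ifit3, between them, had 4 to 20 reads and was not called.

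RNA sensors of the RIG-I family followed different courses. Ddx58 encodes RIG-I and Ifih1 encodes MDA5, which sense different viral RNAs and both signal through MAVS, and Dhx58 encodes LGP2, which tunes them. Ddx58 had 8.38 and 8.65 CPM (0 h), 8.86 and 9.38 (30 min), 10.8 and 11.1 (1 h) and 10.3 and 11.6 (2 h). It then had 19.6 and 19.6 CPM (6 h), 33.6 and 38.96 (12 h), 53.5 and 54.8 (15 h), 64.02 and 59.9 (18 h), 69.2 and 67.9 (21 h) and 71.4 and 71.5 (24 h). It climbed at every time from 6 h, with a log2 fold change of 1.20 ± 0.07 (SE, adjusted p = 6.3e-12) at 6 h and 3.07 ± 0.07 (SE, adjusted p = 4.2e-20) at 24 h. Ifih1 had 16.96 and 17.2 CPM (0 h), 16.9 and 16.5 (30 min), 7.7 and 6.98 (1 h) and 7.18 and 7.45 (2 h). It then had 10.8 and 10.5 CPM (6 h), 10.6 and 9.1 (12 h), 8.68 and 10.02 (15 h), 11.6 and 14.8 (18 h), 10.5 and 10.6 (21 h) and 10.2 and 9.93 (24 h). The level dropped between 30 min and 1 h and came part of the way back, with log2 fold changes of -1.22 ± 0.10 (SE, adjusted p = 7.7e-10) at 1 h, -1.22 ± 0.10 (SE, adjusted p = 5.7e-10) at 2 h and -0.76 ± 0.09 (SE, adjusted p = 2.3e-07) at 24 h, the last under the fold threshold. Dhx58 had log2 fold changes between -0.89 (18 h) and -0.11 (30 min) and was not called.

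Of the regulators, Usp18 removes ISG15 from proteins and blocks the type I receptor. Its counts, from the 37.2% of its body that carries no gene on the other strand, were 20 and 26 reads (0 h), 18 and 23 (30 min), 25 and 13 (1 h) and 13 and 25 (2 h). They were 19 and 9 reads (6 h), 34 and 45 (12 h), 46 and 60 (15 h), 85 and 56 (18 h), 55 and 74 (21 h) and 76 and 75 (24 h) afterwards. The low point was 6 h, and calls ran from 12 h to 24 h, where the log2 fold change was 2.07 ± 0.25 (SE, adjusted p = 1.7e-07). Trim30a, a restraint on innate signalling, had 57.1 and 55.6 CPM (0 h), 47.6 and 51.97 (30 min), 27.5 and 26.8 (1 h) and 39.4 and 39.4 (2 h). Later it had 59.5 and 59.6 CPM (6 h), 83.5 and 80.5 (12 h), 86.3 and 88.1 (15 h), 108 and 116 (18 h), 117 and 112 (21 h) and 109 and 120.04 (24 h). It was lower at 1 h (log2 fold change -1.05 ± 0.06 SE, adjusted p = 9.9e-13) and higher at 24 h (1.02 ± 0.05 SE, adjusted p = 4.9e-14), the latter lost with scaling by library totals (0.77) and without 24 h replicate 2 (0.96). Trim25, which ubiquitinates RIG-I, had log2 fold changes from -0.20 to 0.19 and was not called.

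Of the 5 transcription factors Irf1 changed. It and Rsad2, which had entered the test only through its rise, were the 2 members called higher at 1 h, where 4 were called lower. The share of all genes called at 1 h was not counted. Irf1 had 3.85 and 3.38 CPM (0 h), 6.74 and 5.68 (30 min), 9.0 and 8.89 (1 h) and 9.37 and 8.93 (2 h). From 6 h it had 14.1 and 13.2 CPM (6 h), 13.3 and 11.9 (12 h), 14.3 and 12.8 (15 h), 13.3 and 11.7 (18 h), 14.7 and 14.3 (21 h) and 17.5 and 17.1 (24 h). Both libraries at 30 min already lay above those at 0 h, but the log2 fold change there, 0.77 ± 0.11 (SE, adjusted p = 5.7e-05), was under the fold threshold. It was called at every later time, with a log2 fold change of 1.31 ± 0.11 (SE, adjusted p = 1.3e-09) at 1 h and 2.26 ± 0.10 (SE, adjusted p = 6.0e-15) at 24 h. Stat2 and Irf9, which join in ISGF3, had log2 fold changes of 0.36 and 0.66 at 24 h, and Irf7, the amplifier of type I interferon genes, had one of 0.33. Irf2 was the most abundant member per kilobase, at 4.32 ± 0.0337 CPM at 0 h (SD, n = 2). Its log2 fold change was -0.90 at 1 h and 0.63 at 24 h, neither past a fold of 2.

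Parp9 and Dtx3l form a complex that ADP-ribosylates and ubiquitinates proteins in DNA repair and antiviral defence, and their genes are neighbours on opposite strands of chromosome 16 that overlap at their starts. Parp9 had 17.1 and 16.8 CPM (0 h), 17.3 and 15.7 (30 min), 17.03 and 16.6 (1 h) and 16.8 and 16.2 (2 h), then 27.2 and 25.7 CPM (6 h), 30.6 and 32.4 (12 h), 39.6 and 39.3 (15 h), 42.8 and 38.7 (18 h), 40.3 and 41.8 (21 h) and 41.8 and 40.2 (24 h). Dtx3l had 8.04 and 8.26 CPM (0 h), 8.1 and 8.96 (30 min), 8.23 and 8.33 (1 h) and 7.59 and 7.68 (2 h), then 11.5 and 10.9 CPM (6 h), 11.8 and 12.1 (12 h), 14.7 and 13.5 (15 h), 15.1 and 15.5 (18 h), 15.9 and 15.9 (21 h) and 17.2 and 15.7 (24 h). Both were flat through 2 h and above 0 h from 6 h on, with log2 fold changes of 1.28 ± 0.06 (SE, adjusted p = 2.2e-14) and 1.01 ± 0.07 (SE, adjusted p = 2.4e-11) at 24 h. The call for Dtx3l sat on the fold threshold and was lost with scaling by library totals (0.75), without a low-count filter (0.99), and without 0 h replicate 1 (0.99) or 24 h replicate 1 (0.95). Parp14, on the same chromosome, had a log2 fold change of -0.89 ± 0.06 (SE, adjusted p = 4.2e-11) at 2 h and 0.86 ± 0.05 (SE, adjusted p = 2.1e-12) at 24 h, neither called.

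The antigen processing genes did not move past a fold of 2. Tap1 and Tap2 form the peptide transporter, and Psmb8 and Psmb9 are immunoproteasome subunits. The 4 lie together within chr17:34181987-34216321. Their log2 fold changes ran from -0.68 (Psmb8 at 2 h) to 0.53 (Tap1 at 1 h), and at 24 h they were 0.09 ± 0.07 (SE, adjusted p = 0.25) for Tap1, 0.12 ± 0.06 (SE, adjusted p = 0.094) for Tap2, -0.15 ± 0.16 (SE, adjusted p = 0.41) for Psmb8 and 0.28 ± 0.08 (SE, adjusted p = 0.0038) for Psmb9. Tap2 and Psmb8 were counted over 60.4% and 42.7% of their bodies. Of the 13 members tested but not changed, 12 passed the joint test over time without a fold of 2, so these were differences from 0 h under 2-fold and not a shown absence of change, and Parp14 and Irf2 differed by more than 2-fold between 2 h and 24 h.

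The change at 24 h differed from that at 2 h for many members. Tested directly, 18 members were higher at 24 h than at 2 h and 3 were lower (background 16.2% and 16.6%). The largest rises, in log2 fold change, were those of Gbp2 (4.78 ± 0.20 SE, adjusted p = 3.2e-15), Samhd1 (3.69 ± 0.08 SE, adjusted p = 1.5e-20) and Gbp8 (3.38 ± 0.31 SE, adjusted p = 2.7e-09). Gbp8 and, among the 3 lower, Rsad2 had entered the test only through times where they were high. Parp14 (1.75 ± 0.06 SE, adjusted p = 5.8e-17) and Irf2 (1.27 ± 0.04 SE, adjusted p = 1.1e-17) were called here but at neither time against 0 h. Those that were lower were Mx2, Rsad2 and Bst2, and the count of 3 fell to 1 with DESeq2, to 1 without either 24 h library and to 0 without 2 h replicate 1.

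**Figure D3:**
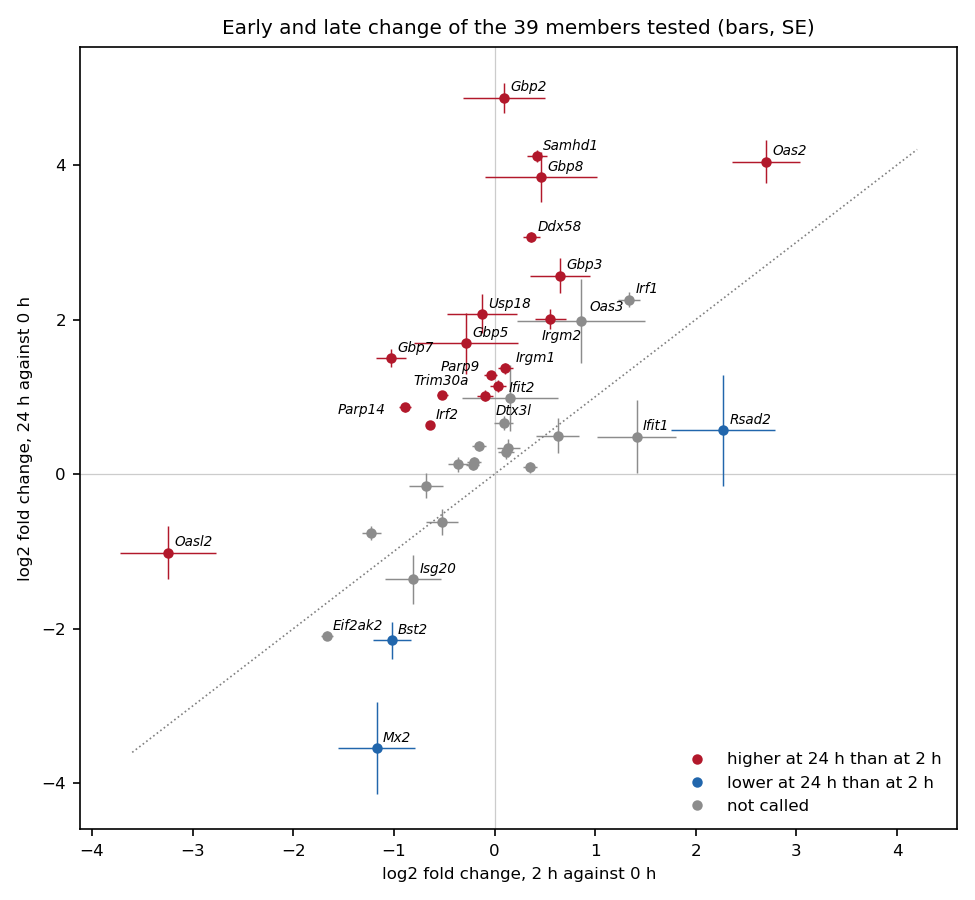
Log2 fold change at 24 h (y axis) against that at 2 h (x axis) for the 39 tested members, both against the same 0 h libraries, with bars for the SE. Red points were called higher and blue points lower at 24 h than at 2 h, grey points neither, and the dotted line marks equal change. Gbp2, Samhd1 and Gbp8 stand high near 0 on the x axis, Oasl2 far to the left, and Rsad2 far to the right.

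Of the members, 8 had too few reads to test, and 6 of these stayed at the floor of 3 counts in both libraries at every time. Gbp4, Gbp6, Gbp9, Igtp and Ifitm3 were at 0 in all 20 libraries, which allows up to 3 counts in each, and Oas1a had at most 3. For 4 of the 5 at 0 the zero says nothing of transcription, since under 1% of the gene body was free of another annotated gene on the same strand (Gbp4 0.193%, Gbp6 0.013%, Gbp9 0% and Igtp 0.771%). Ifitm3, a membrane protein that blocks virus entry, had no overlapping gene, and its RNA was not detectable at this depth. These limits cover counting error only. Mx1 had 0 to 6 reads and Isg15, a ubiquitin-like modifier, 0 to 12, with the 12 in 6 h replicate 2 against 4 in replicate 1.

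**Figure D4:**
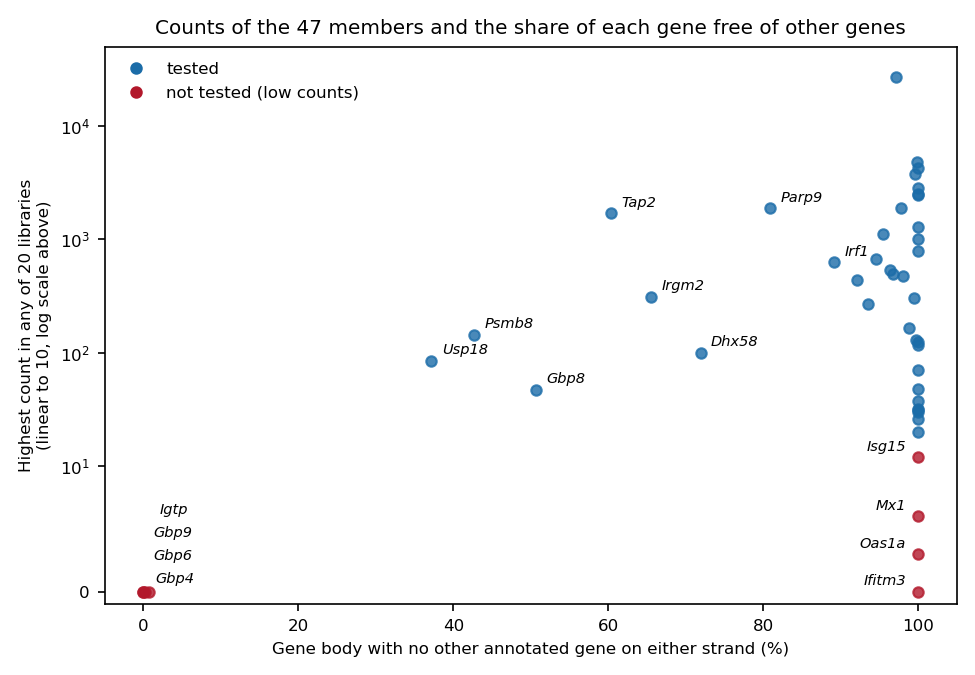
Highest count of each of the 47 members in any of the 20 libraries (y axis, linear to 10 and logarithmic above) against the percent of its gene body that carries no other annotated gene on either strand (x axis). Red points were too low to test. Gbp4, Gbp6, Gbp9 and Igtp sit at 0 on both axes to within 1%, whereas Ifitm3, Oas1a, Mx1 and Isg15 are low with 100% of the body free.

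Other genes of the pathway were read from the same fit, from a list of 78. Of these, 54 were tested and 33 changed (background 51.9%), with 25 higher and 4 lower at 24 h (background 20% up and 20.1% down). Some of the 54, named below, were under the minimum count of the filter at 0 h and could enter only through times where they were higher. How many of the 25 entered in this way was not counted. The 10 interferon genes listed were at 0 in every library but for 1 read of Ifna5, so the ligands were not detected. Whether other annotated genes cover them was not checked. All 9 receptor and JAK kinase genes were tested and 7 were higher at 24 h, with log2 fold changes from 1.18 to 1.47. Zbp1, Parp12, Cmpk2, Socs3, Rtp4, Ifi44 and Iigp1 had at most 9 reads in any library and were not tested.

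Among the changed genes outside the members, the largest changes were mostly late rises. At 0 h Gbp2b, Gbp11, Slfn5 and Socs1 were under the minimum count of the filter. They could enter the test only through other times where they were higher, so the filter favoured rises among such genes. Log2 fold changes from so few reads at 0 h are imprecise. Gbp2b had 2 and 3 reads at 0 h and between 110 and 129 at 24 h, with a log2 fold change of 5.87 ± 0.30 (SE, adjusted p = 6.3e-14). Gbp11 had 0 and 6 reads at 0 h, none at 2 h and between 269 and 278 at 24 h. Slfn5, of the schlafen family, had 0 and 2 reads at 0 h and 23 to 30 at 24 h. At 24 h the log2 fold change of Sp100, a nuclear body protein, was 4.22 ± 0.05 (SE, adjusted p = 3.0e-24), and Ifi203 and Ifi204, of the interferon-inducible DNA sensor family, had values of 3.42 ± 0.07 (SE, adjusted p = 1.7e-20) and 3.14 ± 0.13 (SE, adjusted p = 1.1e-15). Ifi27l2a, another gene induced by type I interferon, had 2.45 ± 0.28 (SE, adjusted p = 7.8e-08). Socs1, the feedback inhibitor of JAK kinases, had 7 reads in each library at 0 h and 94 and 95 at 24 h (4.09 ± 0.23 SE, adjusted p = 5.5e-13).

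Falls were also found outside the members. Mb21d1 (Cgas), the cytosolic DNA sensor, had a log2 fold change of -2.80 ± 0.08 (SE, adjusted p = 1.3e-18) at 24 h. Tlr3, the endosomal sensor of double-stranded RNA, had one of -3.07 ± 0.46 (SE, adjusted p = 6.0e-06) at 2 h and -0.53 at 24 h. Ube2l6, the conjugating enzyme for ISG15, had a log2 fold change of -2.65 ± 0.23 (SE, adjusted p = 2.2e-09) at 2 h, and Xaf1, a proapoptotic interferon target, had one of -2.63 ± 0.21 (SE, adjusted p = 3.9e-10) at 12 h. B2m, Myd88, Psmb10, Gbp10, Ifi47, Tgtp1 and Tgtp2 were listed at 0 in every library, and all 7 are covered by other annotated genes over their whole length.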

How the data were processed

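Chromatin-associated RNA of 20 libraries was sequenced with a directional kit after rRNA depletion. The authors aligned reads to mm10 (GRCm38) with nf-core/rnaseq and STAR and counted them per gene with featureCounts, introns included, and deposited raw counts. Strand setting and annotation release are not given in the sources used here. The 16601 genes that reached 10 counts in 2 or more libraries entered edgeR's quasi-likelihood test (version 4.0.16, R 4.3.3) with TMM factors and 1 coefficient per time point, with Benjamini-Hochberg adjustment over all of them, and were called at adjusted p under 0.01 and a fold change above 2. A gene changed over time if the joint test of all times passed and any fold change exceeded 2. All times share the 0 h libraries. DESeq2 1.42.0, other scalings, filters and thresholds, a replicate block and leaving out each library were alternatives. On simulated data, with a single fixed spread for all genes and times, 86.5% of 200 changed genes at 24 h were recovered with 1 false call. The spread of the real replicates varied between times (chi-square per degree of freedom 1.26 at 2 h and 14.9 at 18 h), so these rates need not hold here. Positions are from GENCODE M21, which holds 55240 of 56239 identifiers. The members, roles and lists were chosen with earlier results of these data known. All members could be named, those called over time with values in every library where they were among the 3 with the largest change of their role group or were called by 2 h.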

Additional observations from a re-analysis of the deposited data

Results flagged for a closer look

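The changes at 2 h and at 24 h differed by the direct test (edgeR's quasi-likelihood test of 24 h against 2 h) for 21 members. The log2 fold change of 24 h against 2 h was -2.37 for Mx2, -1.71 for Rsad2 and -1.13 for Bst2. Among the 18 higher at 24 h it was 1.10 for Ifit2 and for Dtx3l, 1.26 for Irgm1, 1.27 for Irf2, 1.31 for Parp9, 1.34 for Oas2, 1.45 for Irgm2, 1.54 for Trim30a and 1.75 for Parp14. It was 1.92 for Gbp3, 1.97 for Gbp5, 2.20 for Usp18, 2.23 for Oasl2, 2.53 for Gbp7, 2.70 for Ddx58, 3.38 for Gbp8, 3.69 for Samhd1 and 4.78 for Gbp2. Groups of 2 libraries were too small to look for single outlying samples.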

How the results depend on the processing

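Each count had 2 libraries a time point behind it, and the values of members counted in few reads are the least precise. A filter of at least 10 counts in every library, which leaves fewer members to test, lowered those changed to 15, those higher to 1 (2 h), 5 (6 h), 5 (12 h) and 11 (24 h), those lower to 1 (6 h), 2 (12 h) and 2 (24 h), and those lower at 24 h than at 2 h to 1. With DESeq2 the counts were 2 higher at 2 h, 2 lower at 6 h and 1 lower at 24 h than at 2 h. Without a fold threshold 38 members changed, 2 were lower and 3 higher at 30 min, 12 lower and 8 higher at 2 h, 10 lower and 17 higher at 6 h, 7 lower and 20 higher at 12 h, 5 were lower at 24 h than at 2 h, and 53 other pathway genes changed. The share of all genes called was not counted without a fold threshold or under the other alternatives, so these counts have no background. Leaving out 1 library at a time gave 25 to 27 members changed, 4 to 6 lower and 2 to 4 higher at 2 h, 3 to 4 lower and 9 to 10 higher at 6 h, 3 to 4 lower and 8 to 10 higher at 12 h, 3 to 5 lower and 14 to 17 higher at 24 h, 16 to 18 higher and 0 to 3 lower at 24 h than at 2 h, 0 at 30 min, and 33 other pathway genes. Without all 6 libraries of 12 h, 18 h and 21 h, an alternative chosen after seeing the data, 26 members changed, with 17 higher and 4 lower at 24 h. A floor of 10 counts held 7 members rather than 6, and the shorter IRF core AANNGAAA was found in 27 of 42 member promoters (64.3%, against 23.9% of all promoters) and in 26 members rather than 22. Numbers of replicates are shared between time points in the labels but the deviations of same-numbered libraries correlated at 0.0181 on average over 45 pairs of time points (-0.619 to 0.416, 9280 genes), and the fit with this replicate block left each count unaltered (26 members changed, 5 lower and 4 higher at 2 h, 4 lower and 17 higher at 24 h). No called log2 fold change of a member at 2 h or 24 h changed sign under any alternative run.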
